A study of Mus musculus with 4 samples.

Results

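The aryl hydrocarbon receptor (AhR) and the proteins that hold, pair, restrain and assist it were examined in mouse Langerhans cells, the antigen-presenting cells of the epidermis. The set held 8 genes: Ahr, its repressor Ahrr, its dimerization partner Arnt, the chaperone genes Hsp90aa1, Hsp90ab1 and Ptges3, and the coactivators Ncoa1 and Ncoa2. Members were all probe sets that the platform annotation gave 1 of these symbols and no other, 11 of the 22626 probe sets without array controls. They covered 6 genes: 2 probe sets for Ahr, 1 for Ahrr, 2 for Arnt, 3 for Hsp90aa1, 2 for Ncoa1 and 1 for Ncoa2. Both probe sets that carry the symbol Ptges3 carry a second symbol as well and were not used, and no probe set was named Hsp90ab1 here, so these 2 genes are not analysed.

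The samples were 4 one-colour arrays of Langerhans cells sorted to 95% purity, 1 array per sample. Control 1 received 100 µl of DMSO and olive oil. TCDD 1 received 10 µg of the AhR ligand TCDD (a tetrachlorinated dibenzo-p-dioxin) in the same volume of oil. The labels name no skin site for either. Both are called the unnamed site here, which may also be back skin, and that they share a site is assumed. TCDD 2 came from back skin after 10 µg TCDD in DMSO and oil, and control 2 came from back skin and is titled a control, but its treatment protocol names TCDD. Injection was intraperitoneal and cells were taken after 24 h. Genotype, strain and age of the mice were not stated in the labels, nor was it stated whether each array is 1 animal or a pool, so the spread between arrays may be technical.

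In the resting cell AhR is a cytosolic protein held by a dimer of the chaperone Hsp90 and the cochaperone p23 (encoded by Ptges3). A bound ligand sends it to the nucleus, where it releases the chaperones, pairs with Arnt and binds DNA at sites with the core GCGTG, and coactivators such as Ncoa1 and Ncoa2 join it there. Ahrr resembles AhR, competes with it for Arnt and is itself an AhR target gene, which makes it both a brake and a readout of the pathway. Langerhans cells are known to express AhR.

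The Ahrr promoter is shown because Ahrr is the member that AhR is known to induce. It is the stretch of 250 bases before the start of the gene on the minus strand, chr13:74292332-74292581 of GRCm38.p6, from RefSeq, with capitals for GCGTG:
Ahrr: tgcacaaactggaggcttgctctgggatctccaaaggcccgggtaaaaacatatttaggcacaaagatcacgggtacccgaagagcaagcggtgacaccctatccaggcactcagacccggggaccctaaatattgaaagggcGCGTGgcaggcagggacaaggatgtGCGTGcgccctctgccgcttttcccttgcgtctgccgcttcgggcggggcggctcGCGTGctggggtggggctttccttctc
The letters GCGTG were searched on both strands with overlaps allowed. The Ahrr window held 3 matches, the nearest 23 to 27 bases before the start, and 2.77% of 32851 promoter windows of this length in the table held as many. At least 1 match stood in 28.2% of the windows. The longer form TNGCGTG, which contains the core, matched 1 time in the Ahrr window and at least 1 time in 4.1% of all windows. The Arnt window held 1 GCGTG, and the Ncoa1 and Ptges3 windows held 2 each. At least 2 matches stood in 8.63% of the windows. Ahr, Hsp90aa1, Hsp90ab1 and Ncoa2 had no promoter window to search. A match is a description of these letters and not a measured binding site.

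The arrays differed in the 3′ over 5′ ratios of control probe sets and in markers of other cells. Whether RNA quality or the amplification from the 3′ end set these ratios was not tested. For the actin control probe sets, signal at the 3′ end over signal at the 5′ end ranged from 3.48 on TCDD 1 to 49.7 on control 1, and that of Gapdh from 9.55 to 106.8 on the same arrays. The summed signal of 10 Langerhans cell markers ranged from 36893 on control 1 to 57164 on control 2. Among them, Epcam ranged from 7541 to 10032 and Csf1r from 8469 to 11699, while Cd207 (langerin) gave 2120 in control and 5343 after TCDD at the unnamed site, and 7211 in control and 2155 after TCDD in back skin. Itgax, at 115.3 to 230.7, and Itgam, at 8.9 to 37.1, were low. The summed signal of 8 T cell markers gave 671 in control and 1357 after TCDD at the unnamed site, and 2014 in control and 644.7 after TCDD in back skin, and 6 of the 8 were higher on both TCDD 1 and control 2 than on the other arrays. Summed markers of keratinocytes ranged from 1009 to 1607, melanocytes from 1169 to 1760, fibroblasts and endothelium from 630.9 to 1025, and mast cells and granulocytes from 595.9 to 807.5. No marker was listed at 0. In such bulk samples fewer cells of a type and less RNA per cell cannot be told apart.

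**Figure D1:**
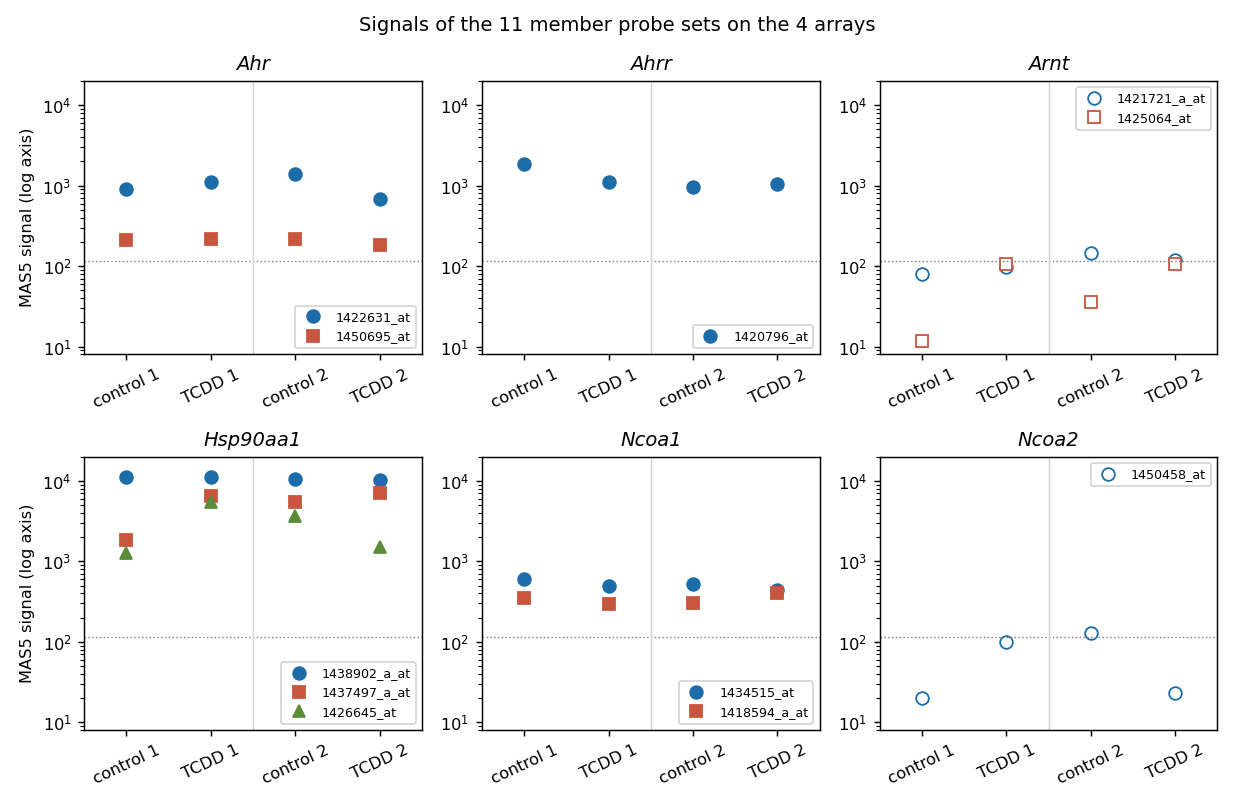
MAS5 signal (log axis) of each member probe set on the 4 arrays; filled symbols were tested, open symbols lay below the expression filter (dotted line, 115.4), and the vertical line parts the unnamed site from back skin. Among the tested probe sets, those of Ahr, Ahrr and Ncoa1 stayed within 2.04-fold, while 2 of the 3 for Hsp90aa1 spread over 3.75-fold and 4.40-fold. Below the filter, spreads were 1.82-fold and 9.07-fold for Arnt and 6.47-fold for Ncoa2.

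The first comparison asked whether TCDD changed the RNA of its own receptor and of that receptor's partners. No member passed the test: of the 8 member probe sets bright enough to be tested, 0 differed between TCDD and control (limma, adjusted p = 0.9999 for each), against a background of 0% of 13576 tested probe sets. At an unadjusted p under 0.05 there was 1 member, an Hsp90aa1 probe set, where 1.47% of all tested probe sets lay. The members' median log2 difference, TCDD minus control, was -0.06, and that of all tested probe sets -0.01. At the 2 sites taken singly, 1 member probe set was higher after TCDD at both (19.3% of all tested), 1 was lower at both (21.3%) and 6 went opposite ways (59.3%). Each such ratio rests on 1 array against 1 array.

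Ahr, the receptor, was measured by 2 probe sets. The brighter, 1422631_at, gave 910.8 in control and 1126.7 after TCDD at the unnamed site, and 1391.5 in control and 681.4 after TCDD in back skin. Both the highest and the lowest value came from back skin, and the groups overlapped. TCDD was 1.24 times control at the unnamed site, and in back skin control was 2.04 times TCDD. A 2-fold or larger drop in back skin was seen in 3.68% of tested probe sets. The log2 difference over the 4 arrays was -0.36 ± 0.41 (SE, n = 2 per group), with a 95% interval from -1.29 to 0.57 (limma, adjusted p = 0.9999). Intervals here and for the other members are not adjusted for the number of probe sets. Every SE given is moderated by limma, which draws on the spread of other probe sets as well as the probe set's own. Without TCDD 2 the difference was 0.0012, so the negative value rested on that array. Without control 2, the array with conflicting labels, it was -0.06.

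The dimmer Ahr probe set, 1450695_at, has the same source accession in the annotation and was nearly level. It gave 212.7 in control and 220.5 after TCDD at the unnamed site, and 219.4 in control and 183 after TCDD in back skin. The highest value was 1.20 times the lowest, and only 7.26% of tested probe sets had a smaller spread. Its log2 difference was -0.10 ± 0.37 (n = 2 per group; limma, adjusted p = 0.9999). Both Ahr probe sets were lowest on TCDD 2, but they disagreed on the size of that drop: log2 ratios in back skin were -1.03 and -0.26. The centred profiles of the 2 probe sets differed by a root mean square of 0.29 log2 units over the 4 arrays.

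Ahrr, the repressor, was measured by 1 probe set, 1420796_at. It gave 1861 in control and 1111.8 after TCDD at the unnamed site, and 959.7 in control and 1049.2 after TCDD in back skin. Control 1 was the highest by a wide margin, and the other 3 arrays lay between 959.7 and 1111.8, with both TCDD arrays between the controls. The log2 difference was -0.31 ± 0.37 (n = 2 per group), with a 95% interval from -1.15 to 0.54 (limma, adjusted p = 0.9999). A rise of 1 log2 unit, 2-fold, lay outside that interval. Without control 1 the difference was 0.17, and without control 2 it was -0.78 (limma, adjusted p = 0.321). The log2 ratio of TCDD to control was -0.74 at the unnamed site and 0.13 in back skin. On control 1 the actin 3′ over 5′ ratio was 49.7, and its part in the Ahrr value there was not tested.

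Arnt, the partner that AhR needs to bind DNA, lay below the expression filter with both probe sets and was not tested. Probe set 1421721_a_at gave 80.5 in control and 98.1 after TCDD at the unnamed site, and 146.5 in control and 118.7 after TCDD in back skin. Both back skin arrays were above both others, and TCDD and control overlapped. Probe set 1425064_at gave 11.7 in control and 105.1 after TCDD at the unnamed site, and 35.6 in control and 106.1 after TCDD in back skin. Here both TCDD arrays lay above both controls, as in 12.4% of tested probe sets, which exclude those below the filter. The control values were below the 20th percentile of their arrays (36.6 on control 1 and 40.6 on control 2), and signals that low carry no exact fold. The 2 probe sets of Arnt thus gave different patterns, with log2 ratios at the unnamed site of 0.29 and 3.17. With the filter removed, the log2 differences were -0.01 ± 0.53 for 1421721_a_at and 2.37 ± 0.72 for 1425064_at (n = 2 per group; limma, adjusted p = 1 for each).

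Hsp90aa1, the inducible isoform of the chaperone that holds AhR in the cytosol, gave both the widest and the narrowest spread among the tested members, since its 3 probe sets disagreed. The brightest, 1438902_a_at, gave 11140.6 in control and 11351.4 after TCDD at the unnamed site, and 10639.4 in control and 10259.1 after TCDD in back skin. These values lay within 1.11-fold of each other, and 1.33% of tested probe sets had a smaller spread. Its log2 difference was -0.01 ± 0.29 (n = 2 per group), with a 95% interval from -0.67 to 0.64; the sign of so small a value turned under quantile normalization (0.02).

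The second Hsp90aa1 probe set, 1437497_a_at, gave 1864.9 in control and 6491.7 after TCDD at the unnamed site, and 5432.5 in control and 6998.7 after TCDD in back skin. Control 1 stood apart as the low array, and both TCDD arrays were above both controls, a pattern found in 12.4% of all tested probe sets. TCDD was 3.48 times control at the unnamed site and 1.29 times control in back skin. The log2 difference was 1.08 ± 0.40 (n = 2 per group), with a 95% interval from 0.17 to 1.99, an unadjusted p of 0.0248 and an adjusted p of 0.9999 (limma). Of all tested probe sets, 98.7% had a smaller absolute difference. The value depended on the controls: it was 0.31 without control 1 (limma, adjusted p = 0.9983; 0.0884% of probe sets passed) and 1.85 without control 2 (limma, adjusted p = 0.00217), a fit against control 1 alone in which 285 probe sets passed, 2.1% of those tested.

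The third Hsp90aa1 probe set, 1426645_at, gave 1262.8 in control and 5551.1 after TCDD at the unnamed site, and 3645.5 in control and 1520.5 after TCDD in back skin. TCDD 1 and control 2 were high and the other arrays low, so that the groups overlapped. TCDD was 4.40 times control at the unnamed site, and control was 2.40 times TCDD in back skin. At least 2-fold in these opposite directions, 0.818% of all tested probe sets behaved so. The log2 difference over the 4 arrays was 0.44 ± 0.67 (n = 2 per group; limma, adjusted p = 0.9999), the widest error of the tested members. Leaving out control 1 made it -0.33 and leaving out TCDD 1 made it -0.50; leaving out TCDD 2 or control 2 made it 1.37 or 1.20.

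The order of the arrays for 1426645_at was TCDD 1, control 2, TCDD 2, control 1, from high to low. That is the order of the actin 3′ over 5′ ratio from low to high: 3.48 for TCDD 1, then 4.64 for control 2, then 7.71 for TCDD 2, then 49.7 for control 1. The Gapdh ratio followed the same order, at 9.55, 11.9, 15.9 and 106.8. This order of signals was shared by 5.33% of all tested probe sets. The wider split, with TCDD 1 and control 2 above both others, was found in 24.2% of tested probe sets and in 3 of the 8 tested members: this Hsp90aa1 probe set and both of Ahr. Of the 10 Langerhans cell markers 3 split this way: Cd207, Cdh1 and the class II gene H2-Eb1. H2-Eb1 gave 5980 (TCDD 1) and 7042 (control 2) against 3972 (TCDD 2) and 1404 (control 1). Another class II gene, H2-Aa, did not split so and was lowest on control 1 (5847) and highest on control 2 (11487). The summed T cell markers also split this way, at 1357 and 2014 against 644.7 and 671. So did the summed Langerhans cell markers, at 44731 and 57164 against 42965 and 36893. The summed melanocyte markers did too, at 1346 and 1760 against 1280.5 and 1169, but only 1 of the 6 melanocyte markers taken singly split so. The sums of the other cell types did not. The part of RNA quality, of amplification and of other cells in the Hsp90aa1 and Ahr values was not tested. The brightest probe set showed no such order. Hsp90aa1 and Hsp90ab1 encode closely similar proteins, and which probe sets also bind RNA of the latter was not tested.

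**Figure D2:**
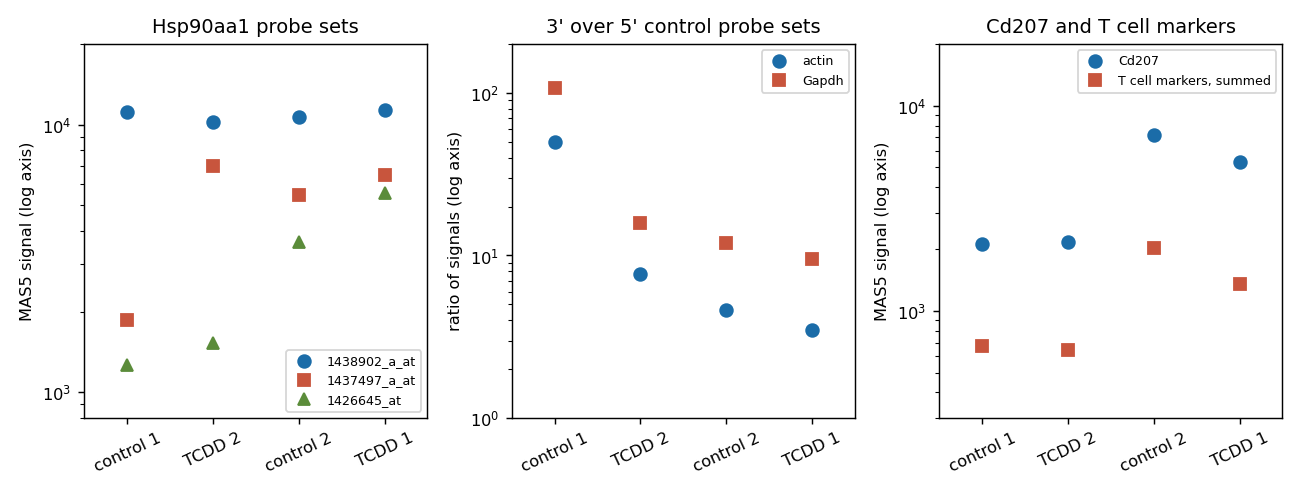
The 4 arrays in order of falling actin ratio: left, MAS5 signal (log axis) of the 3 Hsp90aa1 probe sets; middle, 3′ over 5′ ratio of the actin and Gapdh controls (log axis); right, signal (log axis) of Cd207 and the sum of 8 T cell markers. Probe set 1438902_a_at stays between 10259 and 11351, 1437497_a_at is low on control 1 alone, and 1426645_at climbs from 1263 to 5551 from left to right.

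Ncoa1, a coactivator of nuclear receptors that AhR and Arnt also recruit, was measured by 2 probe sets. Probe set 1434515_at gave 597.3 in control and 488.5 after TCDD at the unnamed site, and 524.2 in control and 434.8 after TCDD in back skin. Both TCDD arrays lay below both controls, as in 13.2% of all tested probe sets. Its ratios at the 2 sites were the most alike of any member, with log2 values of -0.29 and -0.27, and 2.05% of tested probe sets had a smaller gap between sites. The log2 difference was -0.28 ± 0.34 (n = 2 per group), with a 95% interval from -1.04 to 0.48 (limma, adjusted p = 0.9999). The shift was smaller than this moderated SE, which is not the spread of this probe set alone. The difference stayed between -0.37 and -0.19 with any 1 array left out.

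The other Ncoa1 probe set, 1418594_a_at, did not share that pattern. It gave 354.2 in control and 299.4 after TCDD at the unnamed site, and 306.1 in control and 405 after TCDD in back skin, with the highest and the lowest value both after TCDD. The log2 difference was 0.08 ± 0.35 (n = 2 per group; limma, adjusted p = 0.9999). Its sign turned without control 2 (-0.02) and without TCDD 2 (-0.14). Ncoa2, the related coactivator, gave 19.9 in control and 100.4 after TCDD at the unnamed site, and 128.8 in control and 23.3 after TCDD in back skin with probe set 1450458_at. It was below the filter and untested, with TCDD 1 and control 2 high and the other arrays below the 20th percentile of their own signals, 36.6 and 39.2.

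**Figure D3:**
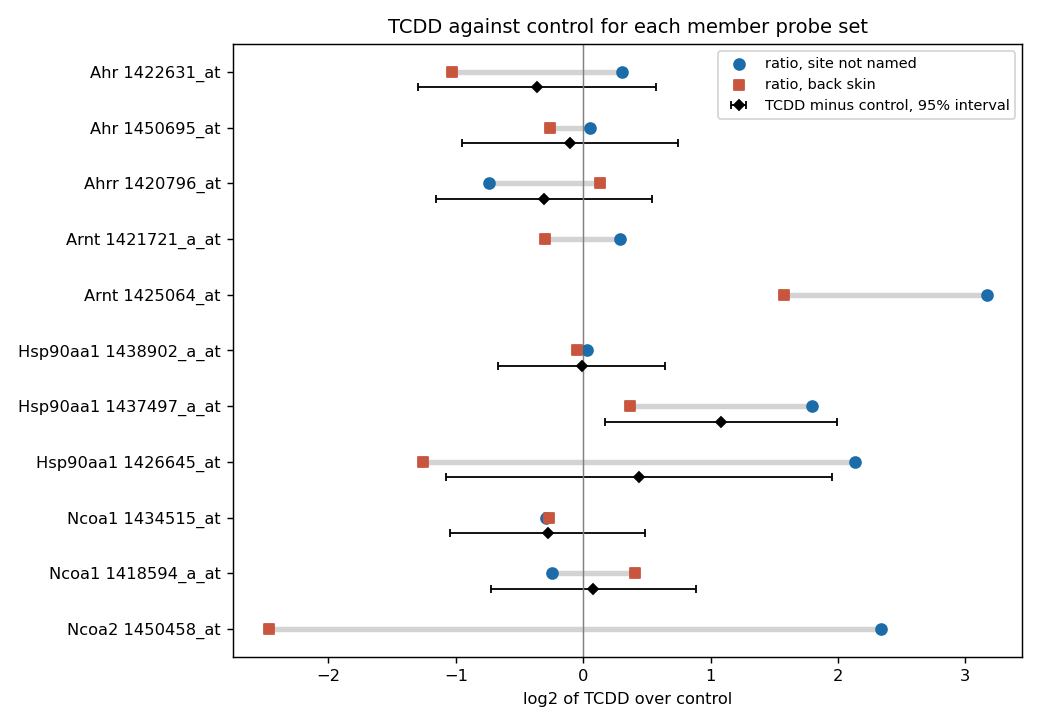
Log2 of TCDD over control for each member probe set: circles for the unnamed site, squares for back skin (1 array against 1 array each), and diamonds with 95% intervals for the fit over 4 arrays, drawn for the 8 tested probe sets. Every interval but that of Hsp90aa1 1437497_a_at (0.17 to 1.99, before adjustment) includes 0, and the Hsp90aa1 1426645_at ratios lie at 2.14 and -1.26.

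The second comparison asked how the members differed between back skin and the unnamed site, which may itself be back skin. This factor cannot be told apart from the experiment. The 2 controls carry different experiment dates in the labels, and the TCDD arrays carry none. Of the 8 tested member probe sets 0 passed (limma, adjusted p = 0.9994 for each), against 0% of 13576 probe sets, and 0 members but 2.02% of all tested probe sets had an unadjusted p under 0.05. The largest difference, back skin minus unnamed site, was 0.83 ± 0.40 for Hsp90aa1 1437497_a_at, followed by -0.52 ± 0.37 for Ahrr (n = 2 per site). The Hsp90aa1 value was -0.07 without control 1 and 1.73 without TCDD 1 (limma, adjusted p = 0.0276), again a fit that sets control 1 alone against back skin and in which 0.656% of probe sets passed. Ahrr was lower in back skin within each treatment, by log2 ratios of -0.96 between the controls and -0.08 between the TCDD arrays. Its difference was -0.15 without control 1 and -0.89 without TCDD 1. The brighter Ahr probe set had no common direction, with 0.61 between the controls and -0.73 between the TCDD arrays.

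With 4 arrays a profile has few free differences, so many genes come close to any given one. Among 8412 other genes, each by its brightest probe set, 856 had a centred log2 profile within a root mean square of 0.25 of that of Ahr and 1111 of that of Ahrr. The nearest to Ahr were Pik3ca, which encodes a catalytic subunit of phosphoinositide 3-kinase, at 0.02, Zfp932 at 0.03 and Gipc2 at 0.03. Pik3ca read 929.6, 1201.2, 1448 and 713.7 on control 1, TCDD 1, control 2 and TCDD 2. The nearest to Ahrr were Bag1, a cochaperone of Hsp70, at 0.01, Scaf11 at 0.03 and Cul3, a ubiquitin ligase scaffold, at 0.04. Bag1 read 1940.8, 1190.6, 1011.5 and 1115.2 in the same order of arrays. These distances describe the 4 arrays and carry no test.

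The rest of the pathway gave no call either. In 5 lists of genes around AhR, each gene by its brightest probe set, 0 passed the test in either direction (limma, adjusted p = 0.9999 for each). Of all 8413 tested genes 0 passed as well. An unadjusted p under 0.05 was found for 0 genes of the lists and for 106 of all 8413 (limma). Over all 8413 tested genes, 17.9% were higher after TCDD at both sites and 22.8% lower at both, with a median log2 difference of -0.03.

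Of the cochaperones and chaperones, 16 of 19 were tested; 3 were higher and 3 lower at both sites, and their median difference was 0.02. Ahsa1, which activates the ATPase of Hsp90, gave 2523.8 (control 1) and 3191.6 (control 2) against 3561.5 (TCDD 1) and 4620.8 (TCDD 2). Both its TCDD values lay above both controls, as in 12.4% of all tested probe sets. The log2 difference was 0.52 ± 0.32 (n = 2 per group). Hsp90b1, the Hsp90 of the endoplasmic reticulum, differed by 0.41 ± 0.34. Unc45a, a cochaperone of Hsp90 and myosin, gave 599.4 (control 1) and 634.3 (control 2) against 320.2 (TCDD 1) and 559.9 (TCDD 2), a difference of -0.54 ± 0.36. Under median centring 3 of the list were higher and 2 lower at both sites, and under quantile normalization 4 and 3.

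Of the list of bHLH-PAS relatives of AhR and Arnt, which also holds the Per genes, 9 of 13 were tested. At the 2 sites 0 went the same way, up or down, and 9 went opposite ways, as did 59.2% of all tested genes, with a median of -0.13. Under quantile normalization or median centring 1 of them was higher at both. Arnt2, the close relative of Arnt, gave 192.1 (control 1) and 177.5 (control 2) against 136.1 (TCDD 1) and 185.5 (TCDD 2). Hif1a, the hypoxia factor that also pairs with Arnt, gave 2694.3 (control 1) and 3277.6 (control 2) against 3148.7 (TCDD 1) and 2036.9 (TCDD 2). Both sets of values overlapped between the groups.

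Of the other coactivators and corepressors, 18 of 22 were tested; 4 were higher and 3 lower at both sites, with a median of -0.09. Under median centring 2 were higher and 2 lower at both sites. Kat2a, a histone acetyltransferase, gave 421.4 (control 1) and 329.9 (control 2) against 581.9 (TCDD 1) and 552.1 (TCDD 2). Its difference was 0.60 ± 0.34 (n = 2 per group). Both TCDD values lay above both controls, as in 12.4% of all tested probe sets. Hdac3, the deacetylase of the NCoR complex, differed by 0.22 ± 0.34 and Trip11, a protein reported to coactivate Arnt, by -0.21 ± 0.35. Ncoa3, the third of the Ncoa family, gave 1258.2 (control 1) and 754.9 (control 2) against 814.1 (TCDD 1) and 928.3 (TCDD 2), so its groups overlapped.

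Of the list of nuclear transport, the Cul4b ubiquitin ligase and Src, which is released from the AhR complex on ligand binding, 7 of 8 were tested. At both sites 0 were higher and 3 were lower, beside 17.9% and 22.8% of all tested genes, and the median was -0.23. These 3 were the transport factors of the list. Differences were -0.23 ± 0.33 for Xpo1, the exportin of AhR, and -0.25 ± 0.34 for Kpnb1, an importin beta. For Kpna2, an importin alpha, the difference was -0.27 ± 0.35 (n = 2 per group), with a log2 ratio of -0.03 in back skin. Xpo1 gave 3702.1 (control 1) and 2878.5 (control 2) against 3466.4 (TCDD 1) and 2247 (TCDD 2), and the groups of each of the 3 overlapped. Under quantile normalization or median centring 2 of the list were lower at both sites. Each difference was smaller than its moderated SE, which is not the spread of that probe set alone.

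Of the classic AhR target genes, which include Ahrr, 6 of 13 were tested; 1 was higher and 1 lower at both sites, with a median of -0.11. Tiparp was the higher (0.32 ± 0.35) and Cyp1b1 the lower (-0.59 ± 0.48; n = 2 per group). Under quantile normalization 0 were higher at both. Tiparp and Ahrr had differences of opposite sign, neither past the test.

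**Figure D4:**
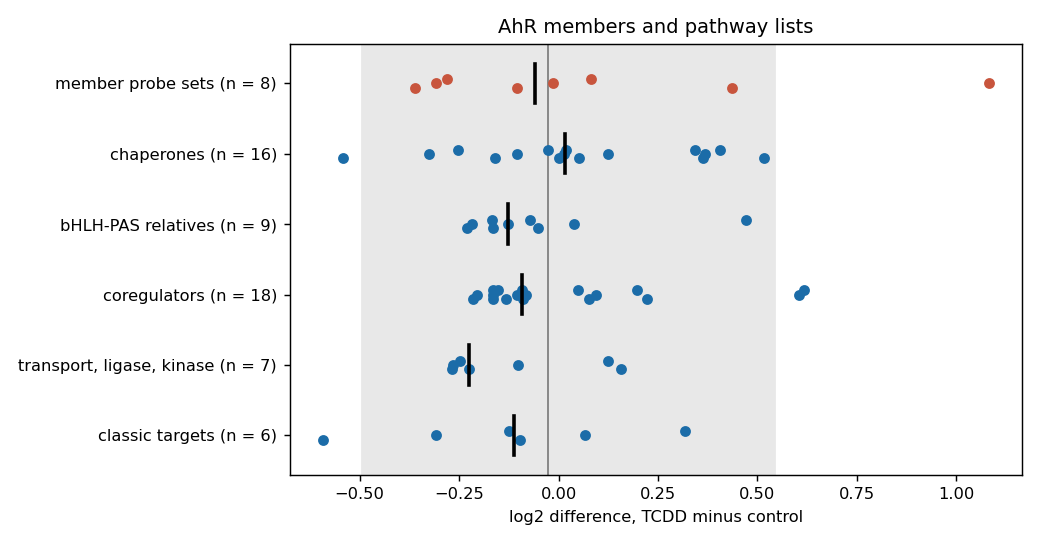
Log2 difference, TCDD minus control, of the 8 tested member probe sets and of the tested genes of 5 pathway lists; each point is 1 probe set, black bars are medians, the grey line is the median of all 8413 tested genes (-0.03) and the shaded band their 5th to 95th percentile (-0.49 to 0.54). Hsp90aa1 1437497_a_at at 1.08 is the only member probe set outside the band.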

How the data were processed

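The authors deposited 1 linear MAS5 intensity for each probe set on each array. Per the submitters' processing notes the tools were affy and MAS5, without versions. RNA was extracted with Trizol, amplified from its 3′ end and labelled with biotin, per the labels' protocols. The arrays shared a trimmed mean near 500 (499.5 to 499.6), so they had been scaled before deposit. Detection calls were not used here.

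Signals were taken to log2. The 13576 of 22626 probe sets with a mean at or above the 40th percentile (log2 of 6.85, signal 115.4) were fitted in limma 3.58.1 (R 4.3.3) with treatment and site as additive terms, eBayes with a trend and Benjamini-Hochberg adjustment at 0.05. This leaves 1 residual degree of freedom, and the small number of arrays sets the precision, with a median standard error of 0.36. The fit was tested on simulated data. Groups came from sample descriptions, and replicate numbers follow accession order. Arrays were paired by whether the labels name back skin, which runs with those numbers. The symbols of all 11 member probe sets matched the RefSeq gene table by gene ID. Every member probe set is given. From each list the 3 genes with the largest difference of 1 direction at both sites are named, and from the profiles the 3 nearest; Arnt2, Hif1a, Ncoa3, Cd207, H2-Aa and the other markers with values were added after their values were seen. The members and lists were chosen with earlier results of these data known. The alternatives were 2 other scalings, 2 filters, a floor, an offset, no site term, no trend and each array left out.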

Additional observations from a re-analysis of the deposited data

Results flagged for a closer look

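In 6 of the 8 tested member probe sets the array after TCDD was higher than its control at 1 site and lower at the other, as in 59.3% of all tested probe sets. The difference between sites was not tested, since each ratio has 1 array on either side. The log2 ratio in back skin minus that at the unnamed site was -3.40 for Hsp90aa1 1426645_at, larger in size than in 99.5% of tested probe sets. It was -1.34 for Ahr 1422631_at and -0.31 for Ahr 1450695_at. It was 0.87 for Ahrr 1420796_at and 0.65 for Ncoa1 1418594_a_at. It was -0.080 for Hsp90aa1 1438902_a_at, whose ratios were both close to 0. Median centring shifts all log2 ratios by the arrays' medians and turned both signs of this last probe set, to -0.11 and 0.07.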

How the results depend on the processing

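Under the alternatives that kept all 4 arrays, 8 for TCDD and 7 for the site, 0 member probe sets and 0 of all probe sets passed. Of 63 TCDD values so obtained 1 turned its sign: Hsp90aa1 1438902_a_at, to 0.017 under quantile normalization; of 55 site values 0 did. Lower at both sites were 2 member probe sets under quantile normalization and 2 under median centring, where the second was Ahr 1450695_at; higher at both were 2 with no filter, where Arnt 1425064_at entered. Median centring moved the median log2 ratio of all probe sets from 0.03 to -0.10 at the unnamed site and from -0.08 to 0.04 in back skin. Without the site term (no replicate block) 0 members passed, 1 was higher and 1 lower at both sites. That arrays of 1 site share an experiment is assumed: the controls carry different experiment dates in the labels, and the TCDD arrays carry none. That the arrays without a named site share a site is assumed as well.

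With 1 array left out the site or treatment term was dropped as well, and the lone array is assumed to vary like the others. Probe sets past the test ranged from 0 to 285 for TCDD and from 0 to 89 for the site, and members from 0 to 1 in each (Hsp90aa1 1437497_a_at). The TCDD difference ranged from -0.72 to 0.0012 for Ahr 1422631_at, -0.24 to 0.030 for 1450695_at, -0.78 to 0.17 for Ahrr, -0.50 to 1.37 for Hsp90aa1 1426645_at, 0.31 to 1.85 for 1437497_a_at, -0.086 to 0.060 for 1438902_a_at and -0.14 to 0.30 for Ncoa1 1418594_a_at. The site difference ranged from -0.57 to 0.46 for Ahr 1422631_at, -0.24 to 0.019 for 1450695_at, -1.24 to 0.90 for Hsp90aa1 1426645_at, -0.074 to 1.73 for 1437497_a_at and -0.089 to 0.31 for Ncoa1 1418594_a_at. The cause was not tested.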
